A study of Mus musculus with 12 samples.

Results

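The mRNAs of the 8 subunits of TRiC, the cytosolic chaperonin also called CCT, were measured in mouse embryonic brain and in cultured neural cells. The members were taken by gene symbol: Tcp1, Cct2, Cct3, Cct4, Cct5, Cct6a, Cct7 and Cct8. All 8 were found among the 25655 genes listed, and all 8 passed the filter on low counts in every comparison. In neurospheres carrying the knockout 7 of the 8 subunit mRNAs rose, by 0.35 to 0.68 on the log2 scale, against 14.7% of 13316 genes called higher. With neurosphere control library 3 or knockout library 2 left out, no gene at all was called. In whole brain no subunit was called, against 0.443% of 13557 genes, and the estimates lay between -0.02 and 0.08.

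TRiC is a barrel of stacked rings, each built from 8 different but related subunits, that closes over an unfolded protein and uses ATP to drive its folding. Its best known clients are actin and the tubulins, which every dividing and neurite-forming cell needs in quantity, together with regulators of the cell cycle and signalling proteins built as propellers of WD repeats. Each subunit takes a fixed place in the ring, so the complex needs a supply of every one of them. In yeast the subunits Tcp1, Cct2, Cct4 and Cct5 are known to bind ATP strongly and to lie on one side of the ring, while Cct3, Cct6a, Cct7 and Cct8 bind it weakly and lie on the other.

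RNA was sequenced in 12 libraries in 4 groups of 3. Whole brain was taken at embryonic day 15 from mice with the label Wildtype, called control here, and from mice with the label (P)RR_CKO, called CKO. Primary neurospheres, which are free-floating clusters grown from neural stem cells, came from the forebrain at embryonic day 16 with the same pair of genotypes. (P)RR is the (pro)renin receptor, encoded by Atp6ap2, and the study's title gives its loss as specific to neural stem cells. Control names read fy/- and CKO names fy/cre. Sources used here do not name the Cre driver, the floxed exons, any alleles of the controls beyond these names, the culture passage or any pooling. All libraries carry the labels C57BL/6J and male. No label says which libraries came from different animals or cultures, so every p-value measures only the spread between these libraries. No label names a batch.

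Brain libraries held 5669338 to 6675874 exon reads and neurosphere libraries 12382975 to 18636787. The share of reads that fell outside exons was 63.8 to 65.5% for brain and 7.64 to 14.1% for neurospheres, where control 1 was highest. The targeted gene Atp6ap2 held 101.3, 102.2 and 100.9 CPM in control and 65.66, 51.34 and 56.75 CPM in CKO neurospheres, where CPM is exon reads divided by the scaled library total. It fell without overlap, with a log2 fold change of -0.81 ± 0.11 (SE, n = 3 per group; edgeR adjusted p = 0.00965, and 0.00437 to 0.057 without each library in turn), and was not called in brain, at 61.64, 63.94 and 73.89 CPM in controls and 56.79, 64.25 and 61.33 CPM in CKO, with -0.12 ± 0.09 (edgeR adjusted p = 0.792). Neurosphere control 1 held 1 read over 4 Y-linked genes, against 1767 to 2992 in the other 5 neurosphere libraries, which goes against its label male, so neurosphere results are also given without it, an alternative that for the gene lists, the order, the shares and the likeness was chosen after seeing the data. The neural stem cell and radial glia markers of the fixed list summed to 9490 to 11500 CPM in neurospheres and 1940 to 2410 CPM in brain, and the neuron markers to 1480 to 2820 and 6620 to 8150 CPM. Erythroid genes summed to at most 3.08 CPM in neurospheres.

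The genes lie on 8 chromosomes: Tcp1 (ENSMUSG00000068039) on chromosome 17, Cct2 (ENSMUSG00000034024) on 10, Cct3 (ENSMUSG00000001416) on 3, Cct4 (ENSMUSG00000007739) on 11, Cct5 (ENSMUSG00000022234) on 15, Cct6a (ENSMUSG00000029447) on 5, Cct7 (ENSMUSG00000030007) on 6 and Cct8 (ENSMUSG00000025613) on 16. Their listed exon lengths run from 2091 bases for Cct5 to 2860 for Tcp1.

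The stretch before the start of transcription was compared first, because 7 of the mRNAs rose together in CKO neurospheres. RefSeq promoter sequences (GRCm38.p6) were matched by symbol for 7 of the 8 subunits, as 9 start sites. Cct4 had no entry. The 250 bases before each start were searched on both strands for 4 motifs, which do not overlap one another in the stretches printed. The CCAAT box (CCAAT) was present at 4 of the 9 start sites, those of Cct3, Cct6a, Cct7 and Tcp1, against 33.8% of all 32851 promoters. The GC box (GGGCGG) was present at 8 of the 9, covering all 7 matched genes, against 32.7% of promoters. The heat shock element (GAANNTTC) was found at 1 of the 9, an alternative start of Cct2, against 6.69% of promoters, and the E-box (CACGTG) at none, against 6.02%.

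Stretches of 3 subunits are printed 5′ to 3′ on the strand of the gene, with CCAAT and GC boxes on either strand in capitals. Those of Cct7 (chr6:85451284-85451504, plus strand) and Cct3 (chr3:88297000-88297115, plus strand) are shown for their 3 and 2 CCAAT boxes, and that of Cct2 (chr10:117063853-117064102, minus strand) for its 4 GC boxes and no CCAAT box. They were trimmed to leave out annotated untranslated and coding sequence, and that of Cct3 ends 19 bases before the start.
Cct7: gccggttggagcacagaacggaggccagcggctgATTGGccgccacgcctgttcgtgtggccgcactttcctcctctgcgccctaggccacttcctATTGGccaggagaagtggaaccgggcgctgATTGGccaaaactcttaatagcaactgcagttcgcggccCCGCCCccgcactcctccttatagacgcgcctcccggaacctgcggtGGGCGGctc
Cct3: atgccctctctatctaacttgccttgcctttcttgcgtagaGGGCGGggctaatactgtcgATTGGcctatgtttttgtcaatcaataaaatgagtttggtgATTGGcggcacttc
Cct2: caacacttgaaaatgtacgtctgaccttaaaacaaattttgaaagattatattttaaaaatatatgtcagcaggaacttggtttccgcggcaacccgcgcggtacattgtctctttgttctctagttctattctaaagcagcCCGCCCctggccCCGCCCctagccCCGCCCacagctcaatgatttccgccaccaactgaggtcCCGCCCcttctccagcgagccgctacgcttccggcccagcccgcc
All CCAAT boxes shown read ATTGG on the printed strand. These matches describe the letters only, and no binding was measured here.

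In whole brain the TRiC subunits did not differ detectably between CKO and control. Tcp1, the alpha subunit, first named from the mouse t-complex, held 268.2, 237.3 and 245.4 CPM in control brains and 284.4, 253.2 and 251.4 CPM in CKO brains. Cct5, the epsilon subunit, altered in a human hereditary sensory neuropathy, held 225.5, 204.3 and 211.4 CPM in controls and 229.9, 217.3 and 206.2 CPM in CKO. For both genes the groups overlapped, and CKO brain 1 was the highest of the 6 libraries. None of the 8 subunits was called by edgeR's quasi-likelihood test at an adjusted p under 0.05, none reached an unadjusted p under 0.05, and DESeq2 called none. In the same comparison 0.443% of 13557 genes were called. Adjusted p-values ran from 0.854 to 0.994 and standard errors from 0.06 to 0.08, and no subunit had groups that did not overlap, against 14.6% of all genes. The summed subunit level was 1827, 1678 and 1702 CPM in control brains and 1881, 1711 and 1690 CPM in CKO brains. In bulk tissue, fewer cells of a type and less RNA per cell cannot be told apart.

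In neurospheres the subunit mRNAs were higher in CKO. The summed subunit level was 2169, 2215 and 2299 CPM in controls and 3233, 3184 and 3142 CPM in CKO, and the groups lay far apart compared with their SDs of 66.1 and 45.7 CPM. Of the 8 subunits 7 rose, against 14.7% of 13316 genes called higher and 26.7% called in either direction. The median log2 fold change of the 8 was 0.57, against -0.02 over all genes tested. All 8 had groups that did not overlap, against 47.9% of all genes.

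**Figure D1:**
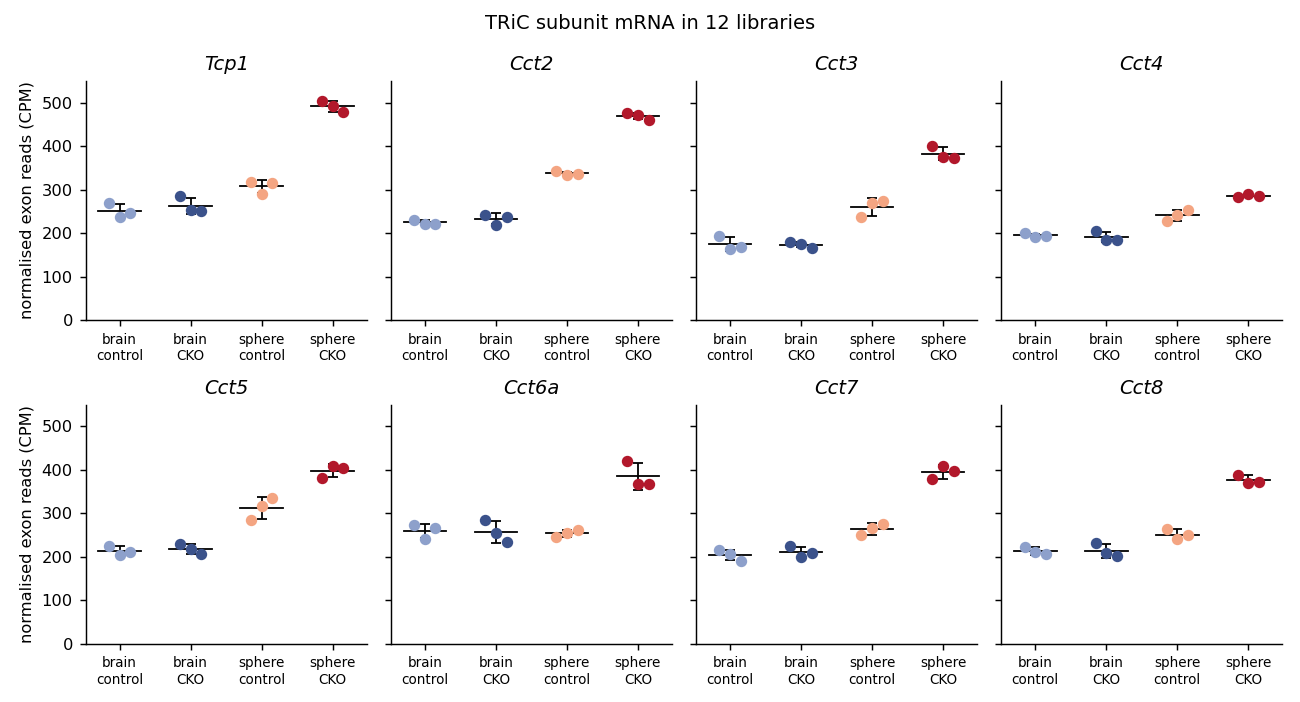
Normalised exon reads (CPM, linear axis from 0) of each subunit in each of the 12 libraries, in 4 groups of 3 (sphere, neurosphere). Points are libraries, the horizontal line is the group mean and the bar 1 SD. The 2 brain groups overlap in every panel, while CKO neurospheres sit above control neurospheres in all 8.

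Among the subunits known to bind ATP strongly, Tcp1 changed most. Tcp1 held 318.3, 289.6 and 314.9 CPM in control neurospheres and 505.1, 491.4 and 479.4 CPM in CKO neurospheres. Every CKO library lay above every control library, and the log2 fold change was 0.68 ± 0.09 (SE; edgeR adjusted p = 0.0089). Cct2, the beta subunit, altered in a human congenital retinal disease, held 342.0, 334.3 and 335.5 CPM in controls and 475.3, 471.9 and 460.5 CPM in CKO. Both groups were tight and well apart, and Cct2 rose by 0.48 ± 0.08 (edgeR adjusted p = 0.0126).

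Cct5 and Cct4 had the smallest differences of the 8. Cct5 held 283.8, 317.8 and 335.2 CPM in control neurospheres and 381.5, 409.1 and 404.4 CPM in CKO neurospheres. Control 1 was the lowest and the groups did not overlap, and Cct5 rose by 0.35 ± 0.09 (edgeR adjusted p = 0.0356). Cct4, the delta subunit, altered in a rat strain with sensory neuropathy, held 228.4, 241.4 and 253.6 CPM in controls and 283.9, 288.9 and 284.7 CPM in CKO. Its groups were also apart, with control 1 again lowest, but the log2 fold change of 0.25 ± 0.08 was not called (edgeR adjusted p = 0.0579).

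The subunits known to bind ATP weakly had similar changes. Cct6a, the zeta subunit, whose relative Cct6b is used in testis, held 245.2, 255.4 and 261.5 CPM in control neurospheres and 420.4, 366.5 and 368.7 CPM in CKO neurospheres. CKO 1 stood above the other CKO libraries, and all 3 exceeded the controls, giving a log2 fold change of 0.60 ± 0.09 (edgeR adjusted p = 0.0112). Cct8, the theta subunit, which raises TRiC assembly in Caenorhabditis elegans when overproduced, held 263.8, 240.9 and 249.3 CPM in controls and 388.7, 370.6 and 371.9 CPM in CKO. Its libraries agreed closely within each group, and it rose by 0.59 ± 0.08 (edgeR adjusted p = 0.0102).

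Cct7, the eta subunit, held 250.5, 265.8 and 276.6 CPM in control neurospheres and 378.8, 409.6 and 398.6 CPM in CKO neurospheres. Cct3, the gamma subunit, held 237.1, 269.9 and 272.9 CPM in controls and 399.5, 376.2 and 373.6 CPM in CKO. Control 1 was the lowest library for both genes and no groups overlapped. Cct7 rose by 0.58 ± 0.08 (edgeR adjusted p = 0.0103) and Cct3 by 0.56 ± 0.09 (edgeR adjusted p = 0.0124).

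These calls depended on single libraries. Without neurosphere control 1 there were 7 subunits called, against 5241 of 13496 genes in either direction, and the median log2 fold change of the subunits was 0.52. Without control 2 there were 5, against 798 of 13511 genes (Cct2, at an edgeR adjusted p of 0.0546, and Cct5, at 0.119, were lost). Without CKO 3 there were 6, against 1359 of 13543 genes (Cct5 was lost, at an edgeR adjusted p of 0.0988). Without control 3, and likewise without CKO 2, edgeR called none of the 8 and no gene at all, with 8 and 7 subunits at an unadjusted p under 0.05. Over all genes 4177 of 13459 and 4282 of 13497 were under that unadjusted p. The median log2 fold changes of the subunits were then 0.58 and 0.56. Without the filter on low counts there were 6 subunits called, against 3183 of 17415 genes (Cct5 was lost). All 8, Cct4 included, were called by DESeq2 (Cct4 adjusted p = 0.0271), by edgeR in a fit of all 12 libraries (adjusted p = 0.0146) and by edgeR without both libraries numbered 1 (adjusted p = 0.0288). Those 3 settings called 4650 of 17415, 5748 of 14415 and 7373 of 13328 genes in either direction.

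In the authors' deposited table the neurosphere signed fold changes ran from 1.188 for Cct4 to 1.603 for Tcp1. Of the 8 subunits 5 were under an FDR of 0.05, against 5.84% of 25655 listed genes higher under the same rule. Shares of that table cover all listed genes with no filter on low counts, so they are not directly comparable with those from edgeR. In that deposited table Cct2 (FDR 0.0636), Cct5 (0.268) and Cct4 (0.577) did not pass. For brain the authors' deposited table listed an FDR of 1 for all 8, so 0 passed, against 0.565% of genes. By edgeR too the brain count was 0, with 0 at an unadjusted p under 0.05.

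Whether the CKO difference was larger in neurospheres than in brain was tested as an interaction over all 12 libraries. The difference was called for 6 of the 8 subunits, all higher in neurospheres, against 7.21% of 14415 genes called higher. With library totals in place of TMM scaling, the genes called higher and lower moved from 1040 and 873 to 705 and 1183, and the same 6-subunit count was obtained. Cct6a had the largest estimate at 0.61 ± 0.13 (edgeR adjusted p = 0.0137), followed by Tcp1 at 0.61 ± 0.11 (edgeR adjusted p = 0.0084) and Cct8 at 0.58 ± 0.10 (edgeR adjusted p = 0.008). The difference was not called for Cct5 (0.32 ± 0.11, edgeR adjusted p = 0.0785) or Cct4 (0.27 ± 0.10, edgeR adjusted p = 0.0817). The count was 6 without each library in turn. With exon-exon junction reads it was 5, against 349 of 11450 genes called higher, and Cct2 was lost (0.34, edgeR adjusted p = 0.0873). The targeted gene Atp6ap2 was also called in the interaction, with a larger fall in neurospheres (-0.68 ± 0.145, edgeR adjusted p = 0.0155). Its part in the subunit differences was not tested.

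**Figure D2:**
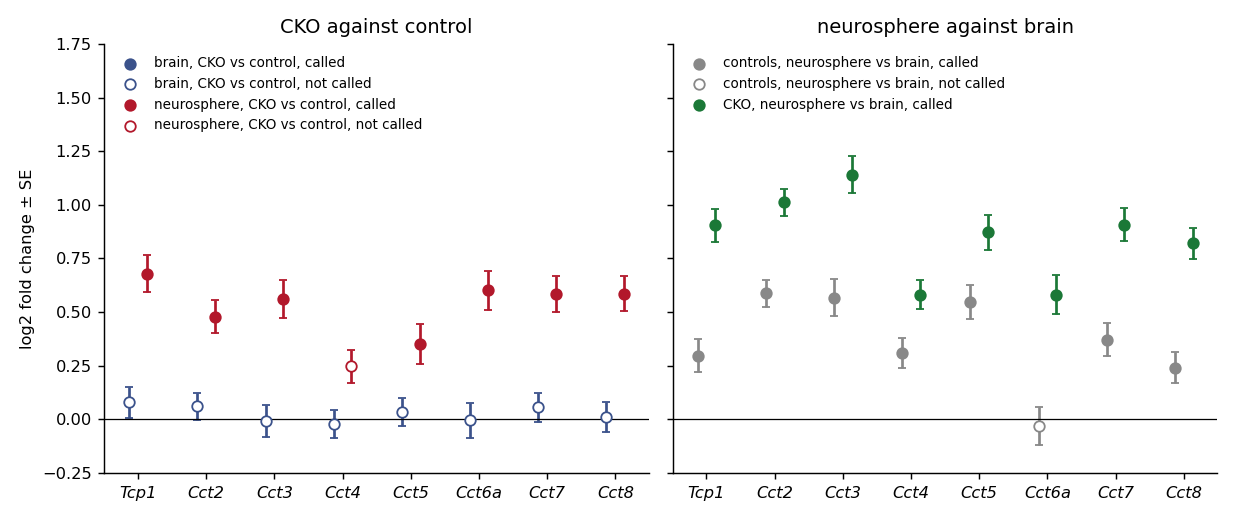
Log2 fold changes of the 8 subunits with their SE, for CKO against control within each tissue (left) and neurosphere against brain within each genotype (right). Filled points were called at an adjusted p under 0.05 by edgeR and open points were not. Brain points lie around 0, neurosphere points from 0.25 to 0.68, and Cct6a is the open point among the control contrast on the right.

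Subunit levels also differed between neurospheres and brain, a comparison in which age, region, culture and cell makeup cannot be told apart. Nor can the makeup of the libraries, with 63.8 to 65.5% of reads outside exons in brain and 7.64 to 14.1% in neurospheres. In controls 7 of the 8 were higher in neurospheres, against 34.9% of 14415 genes, and the groups of the same 7 did not overlap, against 74.3%. The exception was Cct6a, at 259.7 ± 16.1 CPM in brain and 254.0 ± 8.19 CPM in neurospheres (SD, n = 3; log2 difference -0.03 ± 0.09, edgeR adjusted p = 0.76). Cct2 differed most, from 224.5 ± 4.86 CPM in brain to 337.3 ± 4.15 CPM in neurospheres (log2 difference 0.59 ± 0.06, edgeR adjusted p = 7.32e-06). Between the CKO groups all 8 were higher in neurospheres, against 38.4% of genes, without overlap for any (78.9% of genes), by log2 differences from 0.58 for Cct4 and Cct6a to 1.14 for Cct3. Counting exon-exon junction reads alone, edgeR called 2 of the 8 higher in control neurospheres, Cct2 and Cct5, against 30.5% of 11450 genes, while all 8 were called between the CKO groups. With library totals in place of TMM the median over all genes moved from -0.01 to -0.13 in the control contrast and from 0.01 to -0.17 in the CKO contrast, and 5 and 8 subunits were called.

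Levels per kilobase of listed exon length gave the order of the subunits within a group. In control brains Cct5 was highest at 102.0 ± 5.15 CPM per kb and Cct4 lowest at 76.3 ± 1.61 (SD, n = 3), a ratio of 1.34, and all 7 pairs of neighbours in the order had overlapping ranges. In control neurospheres the order ran from Cct5 at 149.0 ± 12.5 and Cct2 at 140.0 ± 1.72 CPM per kb, through Cct3, Cct7, Tcp1, Cct8 and Cct6a, to Cct4 at 94.5 ± 4.93, a ratio of 1.58. Between neighbours there, the gap under Cct2 was the 1 place where ranges did not overlap.

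In CKO brains the order again ran from Cct5 at 104.0 ± 5.67 to Cct4 at 74.9 ± 4.61 CPM per kb, a ratio of 1.39. In CKO neurospheres Cct2 at 195.0 ± 3.21 and Cct5 at 191.0 ± 7.05 CPM per kb were highest, with overlapping ranges. Cct4 stood alone at the bottom at 112.0 ± 1.05 CPM per kb, below Cct6a at 149.0 ± 11.8, and the ratio of highest to lowest was 1.74. The ratios were larger, at 1.94 to 2.54 over the 4 groups, when junction reads per junction were used. Cct4 was lowest in every group by both measures, but the top of the order differed. By junction reads per junction Cct6a was highest in control brain and Cct5 in the other groups. Cct2 was 4th in control and 5th in CKO neurospheres. Junctions were counted as listed exons less 1, with 13 exons listed for Cct5, 14 for Cct6a, 23 for Cct4 and 27 for Cct2. The junction ratios and ranks, that of Cct4 included, depend on this listing. Undivided, junction reads in control neurospheres were 704.2, 678.6 and 677.1 CPM for Cct2 and 508.4, 542.8 and 551.1 CPM for Cct5. Without control 1 the control neurosphere order still began with Cct5 and Cct2 and ended with Cct4 (97.0 CPM per kb).

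The share of each subunit in the summed CPM per kb showed which mRNAs gained or lost ground. Cct4 held 10.1, 10.4 and 10.6% of the total in control neurospheres and 8.46, 8.72 and 8.71% in CKO neurospheres. Cct5 held 15.3, 16.7 and 17% in controls and 13.9, 15.1 and 15.1% in CKO. For both the CKO shares all lay below the control shares. Tcp1 was higher in CKO, at 13.4, 13.2 and 13.1% against 12.6, 11.1 and 11.7%, also without overlap.

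The share of Cct6a was 10.7, 10.9 and 10.7% in control neurospheres and 12.4, 10.9 and 11.1% in CKO, apart by less than the rounding shown. In brain its share was 14.2, 13.7 and 14.8% in controls and 14.4, 14.1 and 13.2% in CKO, above every neurosphere library. The ranges of 4 subunits did not overlap between the neurosphere groups, and in brain this held for 1, Tcp1, whose mean share was 12.4% in controls and 12.9% in CKO. Without control 1 the neurosphere ranges of 5 subunits did not overlap, with Cct8 added. These shares describe the libraries and were not tested.

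**Figure D3:**
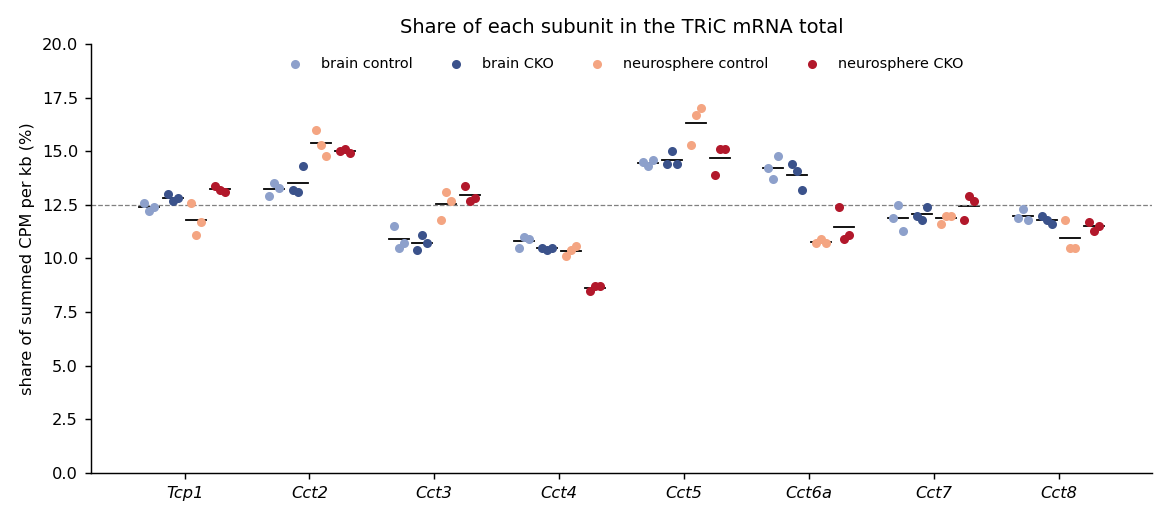
Share of each subunit in the summed CPM per kb of the 8 subunits (%, axis from 0), by library. Points are libraries, lines are group means, and the dashed line marks an even share. Cct4 sits at 8.46 to 8.72% in CKO neurospheres, and Cct6a is lower in both neurosphere groups than in brain.

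Reads inside the genes but outside their exons, which come from unspliced RNA and from anything else transcribed there, did not give calls for the subunits. In brain edgeR called 0 of the 8, against 0.307% of 14024 genes, with 0 at an unadjusted p under 0.05, and the groups of 1, Cct4, did not overlap, against 13.1%. DESeq2 was not run on these reads. In neurospheres edgeR called 0 of the 8, against 1.96% of 11967 genes, with 1 at an unadjusted p under 0.05. The groups of 2, Cct2 and Cct6a, did not overlap, against 28.4% of genes. The lowest p was that of Cct6a, at 0.70 ± 0.25 (edgeR adjusted p = 0.15). The median was 0.38, against -0.02 over all genes, with standard errors of 0.17 to 0.33. That median depended on single libraries: it was 0.12 without CKO 1, 0.24 without control 3 and 0.55 without control 1. Without CKO 1 Cct6a was at 0.38.

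Tcp1 had an estimate of the opposite sign from its exon reads. Its reads outside exons were 163, 183 and 269 in controls and 135, 154 and 99 in CKO, with a log2 fold change of -0.62 ± 0.28 (edgeR adjusted p = 0.228). CKO reads were below every control library, although after scaling the groups overlapped. Without control 1 the value was -0.87 (edgeR adjusted p = 0.0123). In GENCODE M21 the spans of Tcp1 and Cct6a each hold 2 genes of small nucleolar RNAs, among them Snora20 in Tcp1 and Snora15 in Cct6a, and reads from these cannot be told apart from intronic reads. The listed spans of Acat3 and Mrpl18 also overlap that of Tcp1, by 1256 and 646 bases. The part of these neighbours in the Tcp1 reads outside exons was not tested.

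Shared sequence touched mainly the exon values of Tcp1, while other genes overlapped 4 of the 8 subunits. Of the Tcp1 exon reads 84.6 to 90.3% were uniquely placed, against 99.2% or more for the other subunits, and with uniquely placed reads alone Tcp1 rose by 0.68 ± 0.09 (edgeR adjusted p = 0.0091). The listed spans of 4 subunits overlap those of 5 other genes by 193 to 1256 bases. The library kit marks the strand, but no source used here says whether the counting used it, so reads in the overlaps cannot be assigned. Acat3, which has the longest overlap with Tcp1, 1256 bases, was at 23.8 CPM in control and 3.34 CPM in CKO neurospheres and was not called (log2 fold change -2.84, edgeR adjusted p = 0.069), nor was Psph, which overlaps Cct6a, at 71.9 and 47.2 CPM (edgeR adjusted p = 0.168). The neighbour Mrpl18, a mitochondrial ribosomal protein gene that overlaps Tcp1 by 646 bases, rose from 46.1 to 80.5 CPM (log2 fold change 0.81, edgeR adjusted p = 0.00847), and Pradc1, which overlaps Cct7, from 6.26 to 13.7 CPM (1.13, edgeR adjusted p = 0.0253). Junction reads, which lie over splice sites of 1 gene, gave 0.67 ± 0.10 for Tcp1 (edgeR adjusted p = 0.00826) and 0.51 ± 0.09 for Cct7 (edgeR adjusted p = 0.0133), with 6 of the 8 subunits called against 12.4% of genes.

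Genes of the proteins that work beside TRiC were counted in the same edgeR fit, in which 14.7% of all genes were called higher and 26.7% in either direction. Prefoldin, which hands unfolded actin and tubulin to TRiC, had 1 of its 6 subunits called in neurospheres: Pfdn4 rose from 18.2 ± 2.41 to 28 ± 4.24 CPM (log2 fold change 0.62 ± 0.17, edgeR adjusted p = 0.0357). The largest of the other prefoldin values was Pfdn5, at 128.0 ± 28.4 and 93.3 ± 13.8 CPM, which was not called (-0.46 ± 0.19, edgeR adjusted p = 0.117). Of 4 tested TRiC cofactors, 1 was called: Pdcd5, known to bind TRiC, rose from 48.3 ± 0.687 to 70.3 ± 2.81 CPM (0.54 ± 0.08, edgeR adjusted p = 0.0114). The phosducin-like cofactor Pdcl, which works with TRiC on G protein beta subunits, was at 75.0 ± 1.79 and 74.0 ± 6.07 CPM. Without control 1 the counts were 2 higher and 1 lower (Pfdn5) of 6 prefoldin subunits and 1 of 4 cofactors. Over all genes edgeR then called 2850 of 13496 higher and 2391 lower.

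None of the 6 tubulin folding cofactors, which receive tubulin after TRiC, was called in neurospheres by edgeR or by DESeq2, and 0 had an unadjusted p under 0.05. Their log2 fold changes ran from -0.19 ± 0.18 for Tbce to 0.34 ± 0.17 for Arl2. Of the related chaperonin genes Mkks, Bbs10 and Bbs12, whose products act at the cilium, edgeR and DESeq2 called 0, with 0 at an unadjusted p under 0.05. The other 2 listed relatives were too low to test. Without control 1 edgeR called Bbs10 lower and again none of the tubulin cofactors.

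In brain edgeR called 0 of the 77 tested genes of the chaperone, cofactor, client and transcription factor lists, against 0.443% of 13557 genes. Of the 77, 13 were at an unadjusted p under 0.05, against 8.76% of all genes. DESeq2 called 2, Tuba1a and Tubb3, against 108 of 18188 genes. Tubb3, the neuronal beta-tubulin, was at 1050 ± 17.6 CPM in control brain and 877.0 ± 27.3 CPM in CKO brain (SD, n = 3; log2 fold change -0.25 ± 0.05, edgeR adjusted p = 0.0588).

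The mitochondrial chaperonin, which is a distant relative of TRiC built from Hspd1 and capped by Hspe1, had all 4 of its listed genes called higher in neurospheres. Hspd1 went from 382.0 ± 43.6 to 858.0 ± 43.7 CPM (log2 fold change 1.17 ± 0.12, edgeR adjusted p = 0.00795). Hspa9, the mitochondrial HSP70, rose by 0.70 ± 0.09 (edgeR adjusted p = 0.00959), Hspe1 by 0.69 ± 0.10 (edgeR adjusted p = 0.00985) and Trap1, the mitochondrial HSP90, by 0.40 ± 0.11 (edgeR adjusted p = 0.037). Of 20 genes of the cytosolic HSP70 and HSP90 system, edgeR called 12 higher and 0 lower, with a median of 0.45. DESeq2 called 13 higher and 1 lower (Dnajb4, -0.46, DESeq2 adjusted p = 0.0361). Without control 1 edgeR called 12 of these and all 4 mitochondrial genes higher. Stip1, which links HSP70 to HSP90, rose from 168.0 ± 5.49 to 301.0 ± 19.2 CPM, Bag3, a nucleotide exchange factor of HSP70, from 25.4 ± 3.74 to 44.9 ± 3.42 CPM, and Hspa4, an exchange factor of the HSP110 family, from 305.0 ± 3.71 to 514.0 ± 53.8 CPM.

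**Figure D4:**
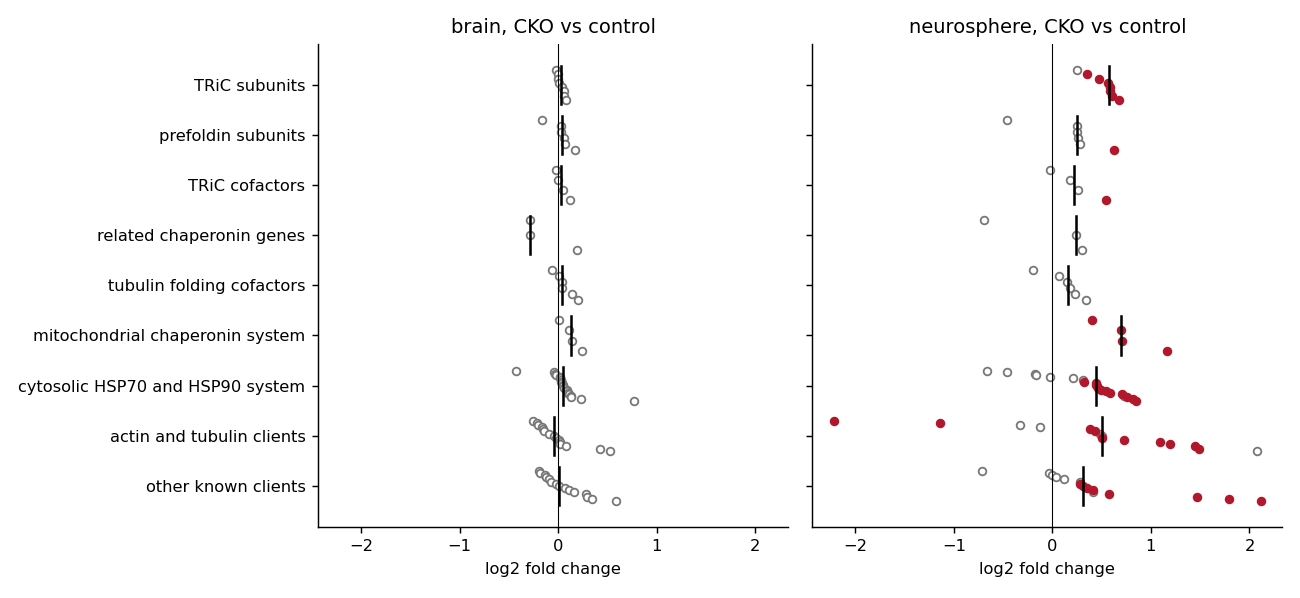
Log2 fold changes of CKO against control for each tested gene of the TRiC, partner and client lists in brain (left) and neurospheres (right). Each point is 1 gene, filled where edgeR called it at an adjusted p under 0.05, and the vertical bar is the median of the list. No point is filled in brain. In neurospheres 7 of 8 TRiC subunits and 4 of 4 mitochondrial chaperonin genes are filled on the right of 0.

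The clients moved in both directions. Of 15 actin and tubulin genes 8 rose and 2 fell in neurospheres, with a median of 0.50. Tuba1b rose from 453.0 ± 80.2 to 1270.0 ± 42.8 CPM (log2 fold change 1.49 ± 0.15, edgeR adjusted p = 0.00795) and Tuba1c from 16.7 ± 6.70 to 45.6 ± 16.2 CPM. Tubb4a fell from 109.0 ± 69.8 to 23.4 ± 7.42 CPM (-2.22 ± 0.53, edgeR adjusted p = 0.0277). Without control 1 the actin and tubulin counts were 11 higher and 3 lower. Of 15 other clients edgeR called 8 higher and 0 lower, while DESeq2, and edgeR without control 1, called 8 higher and 1 lower (Vhl, -0.71, DESeq2 adjusted p = 0.0323). The 3 with the largest changes were cell cycle regulators: Ccne1, cyclin E1 (9.09 ± 4.56 to 39.6 ± 7.06 CPM), Plk1, a mitotic kinase (39.7 ± 16.1 to 137.0 ± 8.04 CPM) and Cdc20, an activator of the anaphase-promoting complex (58.4 ± 29.7 to 161.0 ± 10.7 CPM).

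Of the transcription factors linked to chaperone genes, Hsf1, the main heat shock factor, rose from 32.7 ± 2.02 to 42.3 ± 2.67 CPM (log2 fold change 0.37 ± 0.10, edgeR adjusted p = 0.0418). Mycn fell from 30.2 ± 11.8 to 14.1 ± 1.28 CPM (-1.09 ± 0.30, edgeR adjusted p = 0.0419). Myc, at 62.7 ± 9.97 and 72.6 ± 22.2 CPM, and Hsf2, at 47.0 ± 3.80 and 42.8 ± 1.70 CPM, were not called. Hsf1 and Mycn were called without control 1 too.

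Cell makeup and cell cycle markers moved with the neurosphere groups. All 20 S phase genes and 18 of 20 G2/M genes were called higher by edgeR, against 14.7% of 13316 genes. The summed S phase level was 1650, 706 and 864 CPM in controls and 3490, 3240 and 3050 CPM in CKO. Control 1 had the highest S phase sum and the lowest TRiC sum of the controls. In each of the other 3 groups the library with the highest S phase sum, number 1, also had the highest TRiC sum. In brain the S phase sum was 917 to 1190 CPM in controls and 1090 to 1430 CPM in CKO. Of the 20 genes 0 were called by edgeR or DESeq2. At an unadjusted p under 0.05 there were 2, against 8.76% of all genes.

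Of 11 tested oligodendrocyte lineage markers 7 fell in neurospheres, where edgeR called 1595 of 13316 genes lower and 1958 higher. The sum over all 12 listed oligodendrocyte markers was 2090 to 3840 CPM in controls and 1740 to 1900 CPM in CKO. Of 14 neuron markers 6 fell and 1 rose, with sums of 2400 to 2820 and 1480 to 2330 CPM. Of 9 tested astrocyte markers 3 fell, with sums of 2290 to 5750 and 1720 to 2510 CPM. Pericyte and fibroblast markers summed to 1600 CPM in CKO 3 and 134 to 249 CPM in the other neurosphere libraries, and 2 of 10 rose. Mag was at 0 in CKO neurospheres. Without control 1 edgeR called 20 S phase and 20 G2/M genes higher, 8 oligodendrocyte, 6 neuron and 6 astrocyte markers lower, and 0 pericyte and fibroblast markers. Over all genes that setting called 2850 of 13496 higher and 2391 lower. Of 12 stem cell and radial glia genes, edgeR called only Ptprz1 in neurospheres, lower (log2 fold change -0.62, edgeR adjusted p = 0.031). Without control 1 it called 5 lower and 3 higher. In CKO brain that list had Fabp7 (-0.79) and Ptprz1 (-0.55) lower. The astrocyte genes Aldh1l1 (-1.095), Aldoc (-0.961) and Ndrg2 (-0.922) were also lower there. Their edgeR adjusted p-values ran from 0.00535 to 0.0176. Microglial Fcrls was higher (1.304, edgeR adjusted p = 0.0292). Over all 13557 genes tested in brain edgeR called 27 lower and 33 higher. The part of these marker shifts in the TRiC result was not tested.

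The genes whose pattern over the 12 libraries was nearest to the mean of the 8 subunits were sought among 10739 genes, after centring each gene on the log2 scale. The nearest were Ppp1r8, a nuclear inhibitor of protein phosphatase 1, at a root-mean-square difference of 0.058, Eftud2, a GTPase of the spliceosome (0.059), Srebf2, the transcription factor of sterol synthesis (0.061), Strap (0.065), Rnf4, a ubiquitin ligase (0.066), and Mrpl17, a mitochondrial ribosomal protein (0.067). The median over all genes compared was 0.496. Eftud2 stood at means of 121.0 CPM in control brain, 120.0 in CKO brain, 157.0 in control spheres and 230.0 in CKO spheres, and Pearson's r to the subunit mean was 0.991. Among the partner genes the nearest, named after the values were seen, was Hspa8, the constitutive HSP70, at rank 11. Without control 1 the nearest gene was U2af2, and Eftud2 was 2nd, Rnf4 5th, Ppp1r8 6th and Hspa8 20th.

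Within the complex, Cct7 was nearest to the mean of the other 7 subunits (0.063, r = 0.99) and Cct6a farthest (0.202, r = 0.853), as they were without control 1 (0.063 and 0.196). Of the 10739 genes compared, 975 lay closer to the subunit pattern than the farthest member, so the pattern is not particular to the complex. These likenesses are descriptions over libraries that share tissue and group, not tests.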

How the data were processed

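RNA of 12 libraries (4 groups of 3, grouped by the labels) was depleted of ribosomal RNA and made into strand-marking libraries, per the labels' protocols. Per the file headers, the deposited tables (1 per tissue) hold raw read counts per gene, with no normalization, over exons, uniquely placed over exons, over exon-exon junctions and inside genes but outside exons. The authors' deposited tables also give a test called EDGE, with its p-value, its FDR-corrected p-value and a signed fold change held as a score. No source used here states the aligner or the counting settings. GRCm38 and mm10 are named by the submitters' processing notes, but the listed coordinates do not match GRCm38, so none are printed. Gene overlaps were read from the tables. Another 120 columns of per-sample values were not used.

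Exon counts were fitted per tissue (6 libraries) with edgeR 4.0.16 (R 4.3.3) using TMM, filterByExpr and robust quasi-likelihood F-tests, two-sided, with Benjamini-Hochberg adjustment over all genes tested and a call at an adjusted p under 0.05. The interaction and the tissue contrasts came from 1 fit of 12 libraries. Junction, unique and outside-exon counts were fitted likewise. CPM values are scaled with TMM over 12 libraries and are divided by the listed exon length for levels between genes. The fits were tested on simulated data. Likeness used log2 of CPM plus 0.5 for genes of at least 10 CPM. Alternatives were DESeq2 1.42.0, library totals, no filter, other reads, a single fit, a replicate block and leaving out libraries. From lists of more than 6 genes, the 3 called genes with the largest change could be named, or where none was called the 1 with the lowest p. Not all of these are printed, and Tuba1a, Dnajb4, Vhl, Mag and Hspa8 were named outside this rule. The members and lists were chosen with earlier results of these data known. Total counts per library limit the precision of each value.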

Additional observations from a re-analysis of the deposited data

Results flagged for a closer look

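The CKO difference was larger in neurospheres than in brain for 6 of the 8 TRiC subunits, by the interaction test in edgeR over 12 libraries. The same test called 7.21% of 14415 genes higher. The difference between the log2 fold changes was 0.42 for Cct2, 0.57 for Cct3, 0.61 for Cct6a, 0.54 for Cct7, 0.58 for Cct8 and 0.61 for Tcp1, with adjusted p-values of 0.0146, 0.0146, 0.0137, 0.0121, 0.008 and 0.0084. With exon-exon junction reads 5 of the 6 were called, against 349 of 11450 genes called higher, and Cct2 was not (0.34, edgeR adjusted p = 0.0873). In neurospheres all 3 CKO libraries lay above all 3 controls for each of these 6 subunits, and in brain the groups overlapped for each. Groups did not overlap for 47.9% of all genes in neurospheres and 14.6% in brain. The same interaction test called Atp6ap2, the targeted gene, with a larger fall in neurospheres (-0.68, edgeR adjusted p = 0.0155). Any part of this in the subunit differences was not tested.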

How the results depend on the processing

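Of the fits of exon reads, the difference between tissues was called for 6 subunits without each of the 12 libraries in turn, the control contrast for 7 and the CKO contrast for 8. Without each library in turn the neurosphere comparison called 0 to 7 subunits and 0 to 5241 genes, against 3553 with all libraries, and the difference between tissues 846 to 4003 genes. The brain comparison called 60 genes with all libraries and 3 to 36 without each in turn. For reads outside exons these ranges were 2 to 29 genes in brain, and 0 to 1 subunits and 0 to 1842 genes in neurospheres.

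The count of genes called in brain was 108 by DESeq2, 26 with junction reads, 20 without both libraries numbered 1 and 1 in a fit of all 12 libraries. In neurospheres it was 7373 without both libraries numbered 1 and 5748 in the fit of all 12. For the difference between tissues it was 695 with junction reads and 4912 without both libraries numbered 1, against 1913. Without the filter on low counts, reads outside exons gave 83 genes in brain, against 43, and 500 in neurospheres, against 235. Same-numbered libraries shared only a number: their deviations correlated at 0.413, 0.205 and -0.037 in brain and 0.257, -0.026 and 0.233 in neurospheres, and not every library correlated best with its own number. With a replicate block the brain count was 193 genes and 0 subunits, the neurosphere count 3825 genes and 7 subunits, and reads outside exons gave 139 genes in brain and 1340 in neurospheres.

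With junction reads the control contrast called 2 subunits. Per listed junction, the ratio of highest to lowest subunit was 1.94 and 1.95 in control and CKO brain and 2.34 and 2.54 in control and CKO neurospheres. With library totals the log2 ratio of the summed subunit level in neurospheres was 0.469, against 0.516. The sign of estimates near 0 changed in places. In brain Cct3 was at 0.005 and Cct6a at 0.007 with library totals, Cct4 at 0.008 with junction reads, and Cct3 at 0.04 and Cct8 at -0.024 without both libraries numbered 1. Without each library in turn the brain values ran from -0.058 to 0.07 for Cct3, -0.078 to 0.011 for Cct4, -0.012 to 0.073 for Cct5, -0.087 to 0.06 for Cct6a and -0.056 to 0.053 for Cct8. In the control contrast Cct6a was at 0.044 without the filter, 0.024 without both libraries numbered 1 and -0.071 to 0.039 without each library, and Cct8 at -0.089 with junction reads. For reads outside exons in brain, Cct6a was at 0.031 with library totals, and without each library Cct5 ran from -0.023 to 0.136, Cct6a from -0.031 to 0.052 and Cct8 from -0.027 to 0.115. In neurospheres Cct4 ran from -0.001 to 0.69. None of these was called, and the cause was not tested. The subunits had 41 to 269 reads outside exons per neurosphere library, which limits those values.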
